A study of Mus musculus with 16 samples.

Results

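The mouse miRNA names mmu-miR-5126, mmu-miR-2137, mmu-miR-5099 and mmu-miR-1981-5p, written below without the species prefix, were followed through small RNA libraries of blastocyst fragments. They were picked by name, as 4 of the 1978 mature names listed, because earlier results of the same libraries had shown differences between groups in them. Those differences are therefore given below as a description, with the error of the fit, and are not read as tests. The question put to them was whether a difference followed the group or single libraries. All 4 passed the filter on low counts, which kept 102 names, miR-1981-5p only through libraries of the group where it was highest.

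Laser pulses had divided mouse blastocysts in 2. The polar fragment carries the inner cell mass and the mural fragment is trophectoderm, the outer epithelium, from the far side. Polar fragments came from blastocysts paused in vivo at EDG 7.5 (diapaused, n = 3 libraries), from blastocysts held in pause by mTOR inhibition (mTORi, n = 3, no embryonic day given) and from normal blastocysts at embryonic day 4.5 (WT, n = 2). Mural fragments came from the same 3 kinds of blastocyst (diapaused n = 3, mTORi n = 3, WT n = 2). Age and pausing cannot be told apart in this design, the inhibitor and its dose are not named in the labels used here, and the labels do not say how many embryos a library holds or whether libraries of a group came from separate animals, so errors measure the spread between libraries only. The titles of the mural mTORi libraries also hold the word diapaused, and they were placed by their tissue and treatment labels.

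miRNAs are cut from a hairpin precursor by the nucleases Drosha and Dicer, and the duplex that results can give a product from the 5p and from the 3p arm. The product loaded into an Argonaute protein finds its targets mainly by pairing through its seed, bases 2 to 8. Names without an arm suffix have only 1 product on record, and names with high numbers were mostly added from deep sequencing, so that fewer of them have a known target or a known function. No role in the blastocyst is stated here for any of the 4. In diapause the blastocyst halts its development, reversibly, before it implants. The kinase mTOR ties cell growth to the supply of nutrients.

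The mature sequences of miR-5126, miR-2137 and of both arms of miR-1981 are shown, in RefSeq's spelling on build GRCm38.p6. Their base composition separates these names into 2 kinds. Each is written 5′ to 3′ with the seed in capitals.
miR-5126: gCGGGCGGggccgggggcgggg
miR-2137: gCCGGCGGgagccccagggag
miR-1981-5p: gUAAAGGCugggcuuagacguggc
miR-1981-3p: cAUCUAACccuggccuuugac

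The 22 bases of miR-5126 were all G or C, with G at 77.3%, and miR-2137 held 85.7% G and C over 21 bases. miR-1981-5p, at 24 bases, held 58.3%. The median over the 1679 listed names with a sequence was 52.2%, and over the 89 tested names with one it was 45.5%. In that order miR-5126 stood at rank 1 and miR-2137 at rank 2 of the tested names, and the next name held 68.2%. The seeds of miR-5126, miR-2137 and miR-1981-5p were each shared with 0 other listed names. None of the 3 had an exact match in the sense strand of a GENCODE M21 transcript other than a miRNA's, whereas 20.8% of the names searched had one; a match says nothing of where a read came from.

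For miR-5099 the 74-base hairpin is shown, since no mature sequence was at hand and its mature composition is unknown. The hairpin held 37.8% G and C, against 83.1% in that of miR-5126 and 60.6% in that of miR-2137. The hairpin of miR-1981, with 53.7%, stands beside it with the 5p arm in capitals.
miR-5099 hairpin: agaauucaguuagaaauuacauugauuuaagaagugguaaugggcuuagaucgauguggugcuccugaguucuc
miR-1981 hairpin: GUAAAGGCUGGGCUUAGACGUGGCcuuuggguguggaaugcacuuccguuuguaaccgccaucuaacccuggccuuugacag

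The 4 genes lie apart from each other. Mir5126 (chromosome 1, 84695839 to 84695915, plus strand) lies inside an exon of Dner, a Notch-pathway ligand gene of neurons, on the strand opposite to Dner and within an annotated UTR of it. Mir2137 (chromosome X, 72992079 to 72992144, plus strand) lies in an intron of Zfp185 on the same strand. Mir1981 (chromosome 1, 184822407 to 184822488, minus strand) lies in an intron of Marc2, a mitochondrial reductase gene, on the same strand. Mir5099 (chromosome 12, 36816205 to 36816278, plus strand) overlaps no other annotated gene, the nearest being the lincRNA gene Gm40394 at 61687 bases.

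Depth limited the precision of what follows, and for miR-5126 and miR-2137 so did the spread between libraries. The 16 libraries held 122251 miRNA counts, at most 20051 in mural diapaused replicate 2 and at least 1744 in polar WT replicate 1. miR-5099 had 581 counts in all, miR-5126 457, miR-2137 314 and miR-1981-5p 111, ranks 40, 45, 60 and 94 among the names. Levels are CPM, the counts of a name scaled to a common library size over the tested names after TMM normalization, and intervals are exact 95% binomial intervals that cover counting error only, because reads may not be independent molecules. CPM is relative, so that a smaller level and a larger amount of all other miRNAs cannot be told apart, nor can fewer cells of a type and less RNA per cell. The mural marker cluster miR-322/miR-351/miR-503 held 0.344% to 1.92% of counts in polar and 2.63% to 7.47% in mural libraries, and all 8 polar libraries held more of the polar list than any mural library. Markers of neurons had 0 counts in all 16 libraries, and those of muscle at most 1 per library. Polar mTORi replicate 3 stood apart with 904 counts, 25.8% of its total, of the stratified epithelial markers miR-203-3p and miR-205-5p, and polar WT replicate 2 with 120 counts, 2.43%, of erythroid ones.

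**Figure D1:**
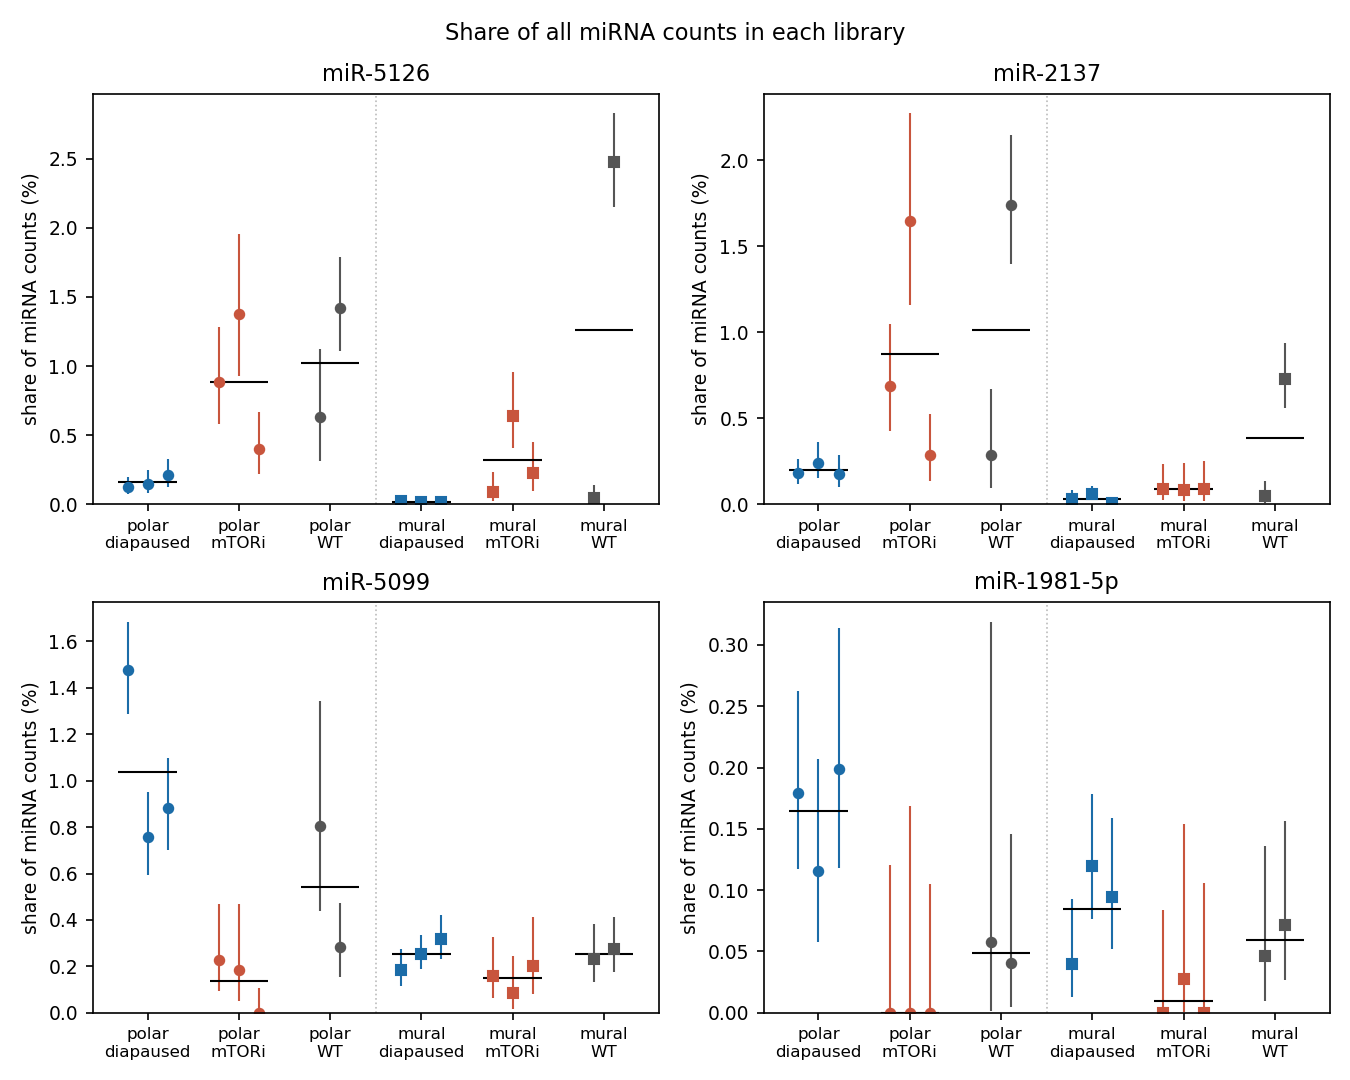
Share of all miRNA counts (%, vertical axis, a separate scale for each name) in each of the 16 libraries, by group; points are libraries, vertical bars exact 95% binomial intervals and black lines group means. miR-5126 and miR-2137 are high in polar mTORi libraries and in the WT libraries labelled replicate 2, and miR-5126 in polar WT replicate 1 is within the polar mTORi range. miR-5099 is highest in polar diapaused libraries and miR-1981-5p is near 0 in mTORi libraries.

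The G-rich names miR-5126 and miR-2137 were low in diapaused fragments of both parts, and high in polar mTORi fragments and in 2 of the WT libraries. For miR-5126 polar WT replicate 1, at 5709 CPM, also lay within the range of the polar mTORi libraries, 4987 to 12688. Polar WT replicate 2 and mural WT replicate 2 together held 60.6% of all counts of miR-5126 and 46.8% of those of miR-2137, with 10.9% of the miRNA counts of the series. These are shares of counts, to which the shallower mTORi libraries add little at any level: by CPM, polar mTORi replicates 1 and 2 lay above mural WT replicate 2 for miR-2137, and polar mTORi replicate 2 stood close to polar WT replicate 2 for miR-5126. The corresponding shares were 6.37% for miR-5099 and 7.21% for miR-1981-5p, so the pile-up in these libraries did not include the other 2 names. By CPM, replicate 2 was also the highest for miR-2137 in polar diapaused, mural diapaused and polar mTORi, but not in mural mTORi libraries. For miR-5126 it was the highest in both mTORi groups and in neither diapaused group.

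miR-5126 had 18, 14 and 19 counts in the polar diapaused libraries, 27, 30 and 14 in polar mTORi and 11 and 70 in polar WT. As CPM these were 1199, 1417 and 1795 in diapaused, 9657, 12688 and 4987 in mTORi and 5709 and 14413 in WT. All 3 polar diapaused libraries lay below every polar WT and every polar mTORi library, while the mTORi and WT libraries overlapped. The polar diapaused and polar WT libraries of all 4 members did not overlap, miR-5126 and miR-2137 being lower and miR-5099 and miR-1981-5p higher in diapaused, and the same lack of overlap held for 45.1% of the 102 names.

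In mural fragments the counts of miR-5126 were 3, 4 and 2 in diapaused, 4, 23 and 8 in mTORi and 3 and 207 in WT libraries. The CPM were 301.3, 245.1 and 167.6 in diapaused, 954.7, 6314 and 2630 in mTORi and 467.4 and 24755 in WT. The mural WT libraries thus differed 53.0-fold from each other, with replicate 2 at a share of 2.47% (95% interval 2.15% to 2.83%) and replicate 1 at 0.0466% (0.00962% to 0.136%). The diapaused libraries lay below both, the 1 member of 4 without overlap here, against 43.1% of all names; the mTORi libraries lay between the 2 WT values.

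The group means of miR-5126 in polar fragments were 1470.5 ± 301.6 CPM in diapaused (SD, n = 3), 9111 ± 3879 in mTORi (n = 3) and 10061 ± 6154 in WT (n = 2). In mural fragments they were 238.0 ± 67.1 in diapaused (n = 3), 3300 ± 2741 in mTORi (n = 3) and 12611 ± 17174 in WT (n = 2). In the order of the 6 means, mural WT came first, followed by polar WT, polar mTORi, mural mTORi, polar diapaused and mural diapaused. Neighbours in that order overlapped, apart from polar and mural diapaused libraries.

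miR-2137 had 26, 23 and 16 counts in polar diapaused, 21, 36 and 10 in polar mTORi and 5 and 86 in polar WT libraries. As CPM these were 1732, 2329 and 1512 in diapaused, 7511, 15226 and 3562 in mTORi and 2595 and 17707 in WT. The diapaused libraries were again the lowest, but polar WT replicate 1 stood close to the highest of them, its 5 counts giving a share of 0.287% (95% interval 0.0932% to 0.668%).

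In mural fragments miR-2137 had 4, 12 and 1 counts in diapaused, 4, 3 and 3 in mTORi and 3 and 61 in WT libraries. The CPM were 401.7, 735.2 and 83.8 in diapaused, 954.7, 823.5 and 986.4 in mTORi and 467.4 and 7295 in WT. Here mural WT replicate 1 lay inside the range of the diapaused libraries and below all 3 mTORi libraries, and mural WT replicate 2 alone was high. Its 61 counts were 95.3% of the group's, from a library with 56.5% of the group's depth.

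The group means of miR-2137 in polar fragments were 1857 ± 422.7 CPM in diapaused (SD, n = 3), 8766 ± 5932 in mTORi (n = 3) and 10151 ± 10686 in WT (n = 2). In mural fragments they were 406.9 ± 325.7 in diapaused (n = 3), 921.6 ± 86.4 in mTORi (n = 3) and 3881 ± 4828 in WT (n = 2). The SD exceeded the mean in both WT groups. The means ran, high to low, through polar WT, polar mTORi, mural WT, polar diapaused, mural mTORi and mural diapaused. Of neighbours in that order, polar diapaused and mural mTORi, and mural mTORi and mural diapaused libraries, did not overlap.

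**Figure D2:**
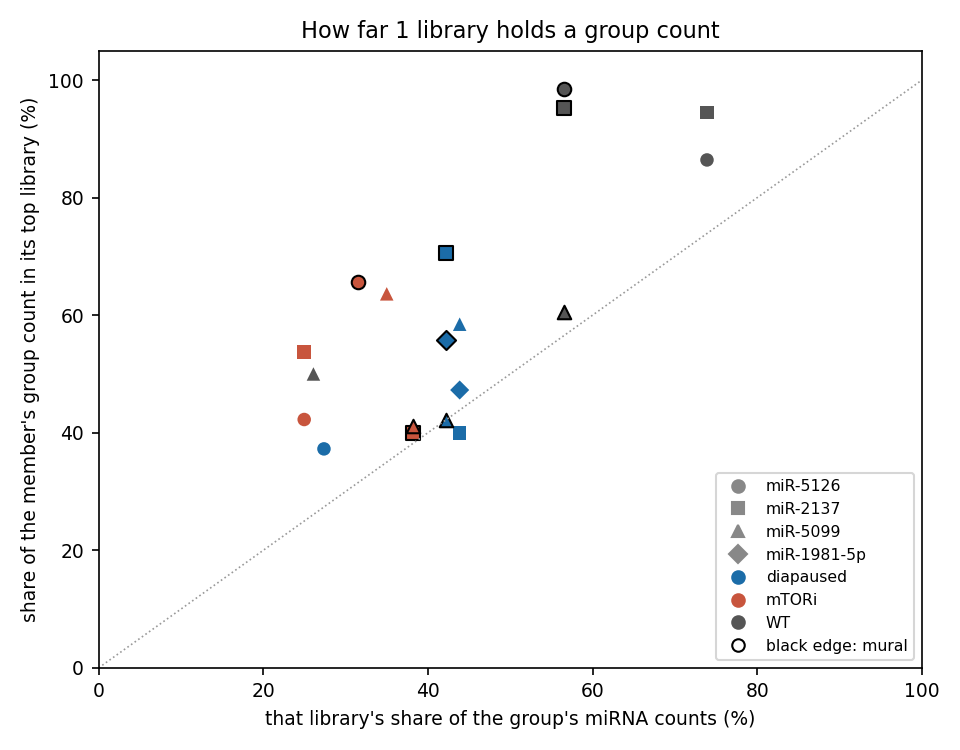
For each member and group with at least 10 counts, the percentage of the member's group count found in its highest library (vertical axis) against that library's percentage of the group's miRNA counts (horizontal axis); the dotted line marks equal percentages, shapes are names, colours treatments, and black edges mural groups. miR-5126 and miR-2137 in mural WT stand at 98.6% and 95.3%, over a library with 56.5% of the depth.

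Fitted over all libraries, miR-5126 had a log2 difference between diapaused and WT of -2.81 (SE 0.91) in polar and of -5.65 (SE 1.05) in mural fragments. Without mural WT replicate 2 the mural difference was -1.0 (SE 1.16), and without mural WT replicate 1 it was -6.59 (SE 0.73). In polar fragments it was -1.91 (SE 1.25) without WT replicate 2 and -3.44 (SE 1.02) without WT replicate 1. The direction of miR-5126 was the same in each of these fits, and the size in mural fragments was set by a single library.

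For miR-2137 the log2 difference between diapaused and WT was -2.52 (SE 0.83) in polar and -3.17 (SE 0.91) in mural fragments. These became -0.44 (SE 1.25) without polar WT replicate 2 and -0.20 (SE 1.27) without mural WT replicate 2. Removing a diapaused library gave values between -2.67 and -2.39 in polar and between -4.03 and -2.84 in mural fragments. Without WT replicate 1 the values were -3.40 (SE 0.85) in polar and -4.02 (SE 0.81) in mural fragments. Nearly all of the difference of miR-2137 in both parts therefore rested on the WT libraries labelled replicate 2. With 2 WT libraries per part, which of them is the unusual one cannot be told.

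**Figure D3:**
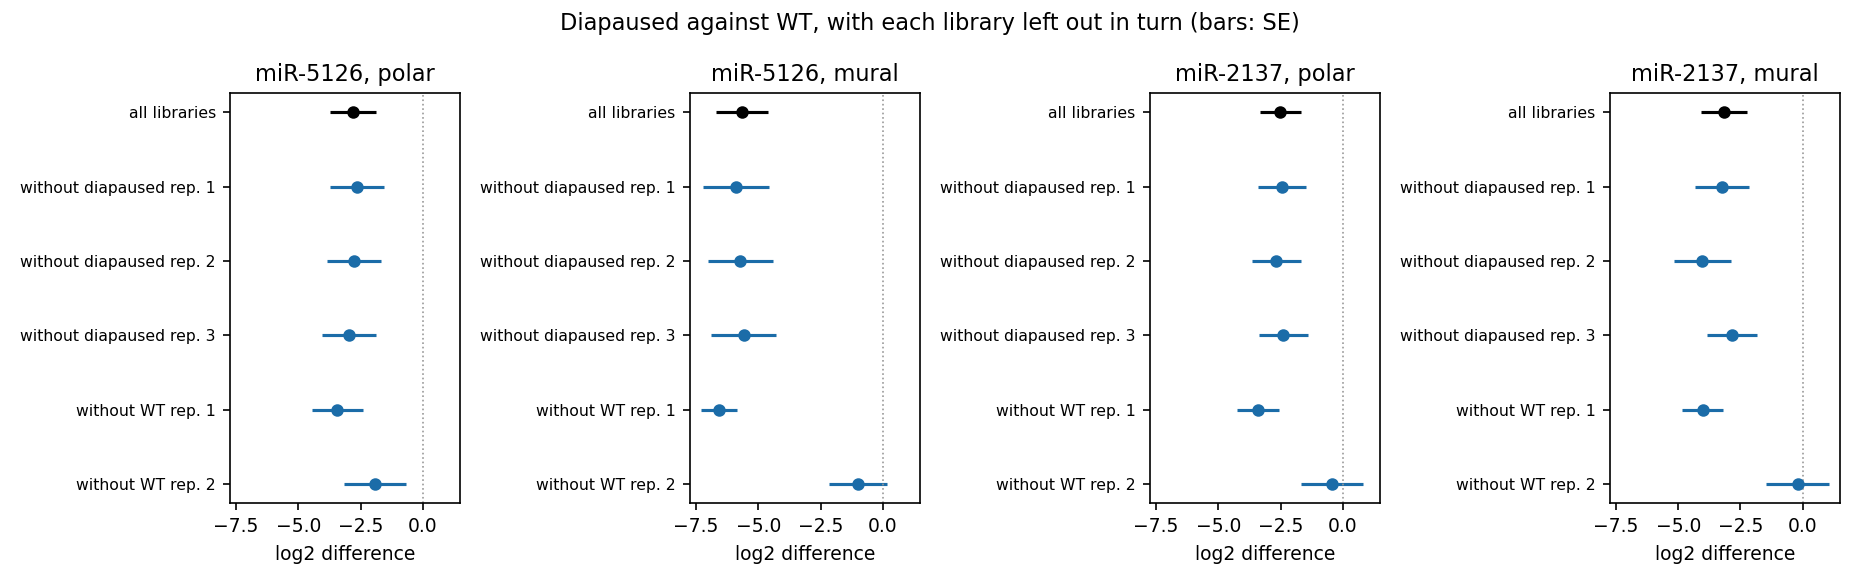
Log2 difference between diapaused and WT (horizontal axis, edgeR) for miR-5126 and miR-2137 in polar and mural fragments with all libraries (black) and with each library of the groups compared left out in turn (blue); bars are standard errors and the dotted line is 0. Leaving out WT replicate 2 moves every panel towards 0, to -1.0 for miR-5126 and -0.20 for miR-2137 in mural fragments.

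In mural fragments 2 of the 4 members, miR-5126 and miR-2137, were called lower in diapaused than in WT libraries, where called means a Benjamini-Hochberg adjusted p under 0.05 over the 102 names in edgeR's quasi-likelihood test. Of all names 9.8% were called in this comparison and 1.96% called lower. The names called lower were these 2 members alone, so that share is no separate background. Without mural WT replicate 2, 0 members were called by edgeR, and miR-2137 also lost its call without mural diapaused replicate 1 or 3 (log2 -3.23, SE 1.08, and -2.84, SE 0.99). In polar fragments 0 of 4 were called by edgeR, against 7.84% of all names. At unadjusted p under 0.05 there were 2 members, among 26 of the 102 names. DESeq2 called 2 members, among 15 names in all. Averaged over the parts, both were called lower, with log2 differences of -4.23 (SE 0.70) for miR-5126 and -2.84 (SE 0.61) for miR-2137. There 18.6% of names were called and 3.92% called lower, a share that includes these 2 members. Without mural WT replicate 2 these averages were -1.84 for miR-5126 and -1.29 for miR-2137 and neither was called, and without polar WT replicate 2 miR-2137 was at -1.88 and not called.

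Between mTORi and WT neither name showed a called difference. In polar fragments the log2 differences were -0.20 (SE 0.90) for miR-5126 and -0.30 (SE 0.83) for miR-2137, and in mural fragments -1.95 (SE 0.90) and -2.08 (SE 0.98), with mural WT replicate 2 again the highest library. The sign turned on the WT libraries labelled replicate 2: without that of the same part the polar values were 0.75 (SE 1.28) for miR-5126 and 1.83 (SE 1.25) for miR-2137, and the mural values 2.69 (SE 1.05) and 0.88 (SE 1.29). These comparisons share their WT libraries with those of diapaused fragments. Of the 4 members 0 were called by edgeR in either part, where it called 22.5% of names in polar and 11.8% in mural fragments. At unadjusted p under 0.05 there were 2 members in each part, among 43 of 102 names in polar and 28 in mural fragments. DESeq2 called 1 member in polar and 0 in mural fragments. In each part 2 of the 4 members, miR-5099 and miR-1981-5p, had mTORi libraries below both WT libraries, and 45.1% of all names showed no overlap in either part.

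The comparison of diapaused with mTORi fragments uses no WT mean. Its errors still come from the fit of all 16 libraries, WT included. miR-5126 was lower in polar diapaused than in polar mTORi libraries by a log2 difference of -2.62 (SE 0.87) and in mural fragments by -3.70 (SE 1.05). For miR-2137 these differences were -2.22 (SE 0.78) and -1.08 (SE 1.05). In a fit of only the polar groups compared they were -2.69 (SE 0.45) for miR-5126 and -2.31 (SE 0.55) for miR-2137. Neither name has a value in such a fit of mural fragments. All 3 diapaused libraries lay below all 3 mTORi libraries for both names in both parts, and above them for miR-5099 and miR-1981-5p. The libraries of all 4 members thus did not overlap, as was so for 32.4% of all names in polar and 41.2% in mural fragments. For miR-5099 in mural fragments this held by CPM only, since as a share of counts mural diapaused replicate 1, at 0.182%, was below mural mTORi replicate 3, at 0.201%. The polar mTORi libraries include replicate 3, in which the epithelial markers were high, and without it the polar difference of miR-5126 was -3.18 (SE 0.90).

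miR-5126 and miR-2137 were mostly higher in polar than in mural fragments of the same treatment. In diapaused blastocysts the polar libraries lay above the mural ones for both names, with log2 differences of 2.55 (SE 1.02) for miR-5126 and 2.08 (SE 0.86) for miR-2137. In mTORi blastocysts the differences were 1.46 (SE 0.87) and 3.21 (SE 0.93), and the libraries of miR-5126 overlapped. In WT they were -0.29 (SE 0.96) and 1.43 (SE 0.91), with overlap for both. Without mural WT replicate 2 the WT difference of miR-5126 was 4.31 (SE 1.08), and that of miR-2137 4.36 (SE 1.23), while without polar WT replicate 2 they were -1.43 (SE 1.33) and -0.87 (SE 1.28), so the sign in WT turned on these libraries. Polar libraries lay apart from mural ones for 1 of 4 members in mTORi (miR-2137), against 20.6% of names, and for 1 of 4 in WT (miR-5099), against 52% of names. Averaged over treatments miR-2137 was called higher in polar fragments, by 2.24 (SE 0.52), where 27.5% of names were called and 12.7% called higher, and without polar WT replicate 2 the value was 1.43 (SE 0.60) and not called.

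The pair also moved together across libraries. Over the 16 libraries the log2 CPM of miR-5126 had a Pearson correlation of 0.87 and a Spearman correlation of 0.86 with that of miR-2137, which was the most similar of the 101 other tested names. Without mural WT replicate 2 and polar WT replicate 2, the libraries farthest from the median of miR-5126, Pearson's value was 0.84. For deviations from the group means it was 0.77. The libraries are points that share depth, composition and the CPM scale, so these values are a description. The names next most like miR-5126 were miR-743b-3p (0.55) and miR-743a-3p (0.53), and those next most like miR-2137 were miR-15b-5p (0.69) and miR-379-5p (0.62).

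**Figure D4:**
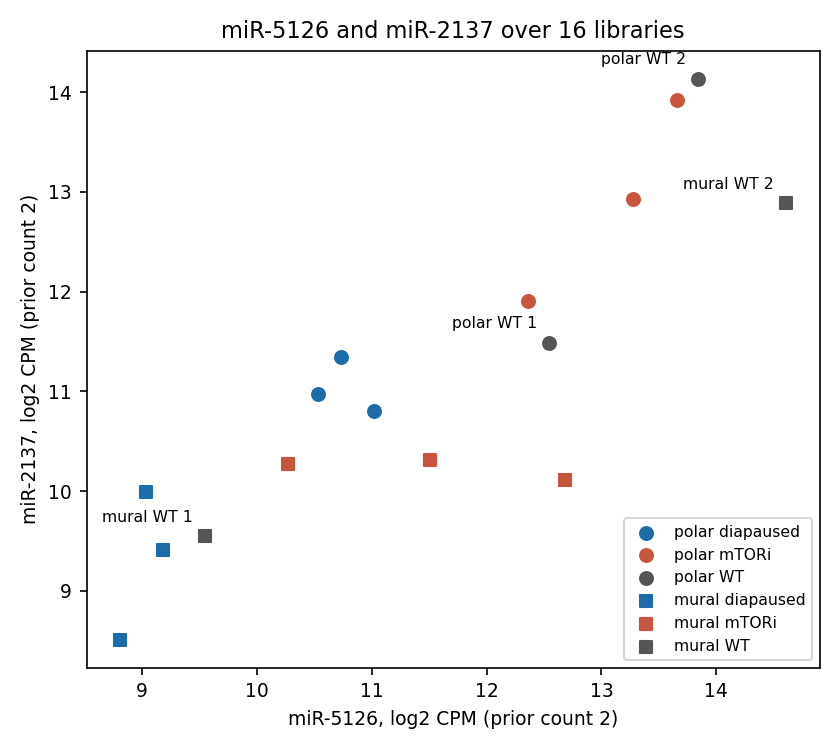
Log2 CPM (prior count 2) of miR-5126 (horizontal axis) and miR-2137 (vertical axis) in the 16 libraries; colours are treatments, circles polar and squares mural fragments, and the 4 WT libraries are labelled. The mural diapaused libraries lie at the lower left beside mural WT 1, and the WT libraries labelled 2 lie at the upper right.

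Between the mural WT libraries, replicate 2 over replicate 1, miR-5126 showed the largest log2 difference of the 102 tested names, 5.07, and miR-2137 the second largest, 3.34, against a median of -0.11 over the other 86 tested names with a sequence. miR-5099 at 0.21 and miR-1981-5p at 0.42 did not share it. Between the polar WT libraries, replicate 2 over replicate 1, the differences were 1.29 for miR-5126 (rank 18 of 102) and 2.65 for miR-2137 (rank 7). Over the same 86 names the correlation of G and C content with this difference was -0.22 in mural and -0.08 in polar WT. The 3 other detected names with at least 80% G and C had 2 counts in mural WT replicate 2 and 0 in polar WT replicate 2, and 31 of their 44 counts were of miR-8109 in mural diapaused replicate 3, a name chosen after its values were seen.

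Each of these libraries also stood out in another list, but not in the same one. In mural WT replicate 2, names that can match rRNA or tRNA had 20 counts, 0.239% of the library against at most 0.114% in any other library, and 18 of the 20 were of miR-6240. Polar WT replicate 2 had 1 count of that list, 0.0202%. What set polar WT replicate 2 apart was its erythroid counts. Its 17 counts of the 5 leukocyte markers, 0.344%, did not, since polar mTORi replicate 2 held 0.366%. Erythroid markers were at 0.0956% in mural WT replicate 2 and 0.109% in mural WT replicate 1. The part of any of these in the values of miR-5126 and miR-2137 was not tested.

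miR-5099 followed a different pattern, with its highest values in polar diapaused fragments and no pile-up of counts in the WT libraries labelled replicate 2. It had 214, 72 and 80 counts in polar diapaused, 7, 4 and 0 in polar mTORi and 14 and 14 in polar WT libraries. The CPM were 14254.5, 7290 and 7558 in diapaused, 2504, 1692 and 0 in mTORi and 7266 and 2883 in WT. A count of 0 in polar mTORi replicate 3 allows a share of up to 0.0857%. The 3 diapaused libraries lay above all mTORi libraries and only just above polar WT replicate 1. As a share of all miRNA counts, diapaused replicate 2 at 0.757% (95% interval 0.593% to 0.953%) was below polar WT replicate 1 at 0.803% (0.440% to 1.34%), so the separation from WT depended on the scaling.

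In mural fragments miR-5099 had 23, 51 and 47 counts in diapaused, 7, 3 and 7 in mTORi and 15 and 23 in WT libraries. The CPM were 2310, 3125 and 3938 in diapaused, 1671, 823.5 and 2302 in mTORi and 2337 and 2751 in WT. The mural WT libraries, so far apart for miR-5126, were within 1.18-fold for miR-5099. Diapaused and WT libraries overlapped, and by CPM the mTORi libraries lay below both by a narrow margin. By share of counts diapaused and mTORi libraries overlapped, so that separation depended on the scaling.

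Group means of miR-5099 in polar fragments were 9701 ± 3946 CPM in diapaused (SD, n = 3), 1398 ± 1277 in mTORi (n = 3) and 5074 ± 3100 in WT (n = 2). In mural fragments they were 3124 ± 814.2 in diapaused (n = 3), 1599 ± 741.7 in mTORi (n = 3) and 2544 ± 292.6 in WT (n = 2). High to low, the order was polar diapaused, polar WT, mural diapaused, mural WT, mural mTORi and polar mTORi. Of neighbours in that order, polar diapaused and polar WT were separate by CPM only, polar WT overlapped with mural diapaused and mural diapaused with mural WT libraries, mural WT and mural mTORi were separate, and the 2 mTORi groups overlapped.

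The largest difference of miR-5099 was between polar diapaused and polar mTORi fragments, with a log2 value of 2.79 (SE 0.65). It was called in the fit of all libraries and in each of the 6 fits that left out a polar diapaused or polar mTORi library, with values from 1.93 (without mTORi replicate 3) to 3.61 (without mTORi replicate 1). In a fit of only these groups it was 2.74 (SE 0.72) and not called. Of the 4 members 3 were called here, miR-5099 and miR-1981-5p higher and miR-5126 lower in diapaused fragments. Of all names 15.7% were called, 7.84% higher and 7.84% lower. miR-1981-5p passed the filter only through polar diapaused replicates 1 and 3, at 0.179% and 0.199% of counts. It fell below the filter whenever a diapaused library was left out. Its call as higher in this same group is therefore not read as a result. The call of miR-5126 was lost with scaling by library size alone, in a robust fit, without any 1 of the diapaused libraries and without mTORi replicate 1 or 2, with values from -2.78 to -2.25. In mural fragments the difference of miR-5099 was 0.98 (SE 0.62), and of the 4 members 0 were called by edgeR, where it called 0.98% of names. At unadjusted p under 0.05 there were 2 members, among 26 of 102 names, and DESeq2 called 1 member.

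miR-5099 was higher in polar than in mural pieces of diapaused blastocysts by 1.63 (SE 0.53), the 1 member called there, where 18.6% of names were called and 4.9% called higher. The libraries did not overlap for 3 of the 4 members, all but miR-1981-5p, against 42.2% of names. Polar diapaused replicate 1 held 58.5% of the group's counts with 43.9% of its depth, and without it the difference was 1.28 (SE 0.58). The call was lost on leaving out any 1 of the 6 libraries, with values from 1.28 to 1.95, and with the replicate number as a block (1.53, SE 0.53), so the direction was stable over these fits and the call was not. In WT the difference between the parts was 0.90 (SE 0.72) and in mTORi -0.18 (SE 0.76), with a value of 0.47 (SE 0.64) without polar mTORi replicate 3. Of the 4 members 0 were called by edgeR in WT, where it called 10.8% of names, and 0 in mTORi, where it called 4.9%. At unadjusted p under 0.05 there were 0 members and 27 of 102 names in WT, and 1 member and 19 names in mTORi. DESeq2 called 0 members in WT and 1 in mTORi.

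Against WT, miR-5099 in diapaused fragments differed by 1.02 (SE 0.65) in polar and 0.29 (SE 0.62) in mural fragments, and in mTORi fragments by -1.77 (SE 0.76) and -0.69 (SE 0.70). None of these passed the threshold. The mural diapaused value was -0.02 (SE 0.64) with scaling by library size alone and -0.08 (SE 0.66) without mural diapaused replicate 3. Without polar WT replicate 2 the polar diapaused value was 0.49 (SE 0.79), and without polar mTORi replicate 3, the library with no count, the polar mTORi value was -0.91 (SE 0.64). The names most like miR-5099 over the 16 libraries were miR-466f-3p (Pearson 0.81), miR-291b-3p (0.77) and miR-183-5p (0.76).

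miR-1981-5p was detected in every diapaused library and hardly in mTORi libraries. It had 26, 11 and 18 counts in polar diapaused, 0, 0 and 0 in polar mTORi and 1 and 2 in polar WT libraries. In mural fragments it had 5, 24 and 14 counts in diapaused, 0, 1 and 0 in mTORi and 3 and 6 in WT libraries. Added over both parts, there were 98 counts in 80531 of diapaused, 1 in 20235 of mTORi and 12 in 21485 of WT libraries.

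The polar mTORi libraries, with 0 of 8746 counts, allow a share of up to 0.0343%, taking 3 counts over the group as the limit. The share of miR-1981-5p in the polar diapaused libraries, 0.166%, was 4.85-fold that limit. With the counting error of both groups included, the exact 95% lower limit of the ratio was 3.81. Since miR-1981-5p passed the filter only through polar diapaused libraries, neither value is read as a test. In mural fragments the ratio of diapaused to mTORi shares was 10.4 (exact 95% interval 1.77 to 420.5), from 43 counts against 1. The ratio of mTORi to WT in mural fragments was 0.143 (0.00327 to 1.03), from 1 count against 9. In polar fragments both mTORi and WT groups were at or under 3 counts, and no fold between these 2 groups is given. These intervals treat each group's counts as 1 pool and leave out the spread between libraries.

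Against WT, diapaused fragments had a ratio of 3.71 (exact 95% interval 1.20 to 18.5) in polar, from 55 counts against 3, and of 1.49 (0.716 to 3.48) in mural fragments, from 43 counts against 9. These intervals again pool the libraries of a group and leave out the spread between them. The 3 polar WT counts are at the limit used above, and the name passed the filter through polar diapaused libraries. The polar ratio is therefore not read as a test. The CPM of the polar libraries were 1732, 1114 and 1701 in diapaused and 519.0 and 411.8 in WT, without overlap, and those of the mural libraries were 502.2, 1470.5 and 1173 in diapaused and 467.4 and 717.5 in WT, with overlap. The fitted log2 differences were 1.73 (SE 0.91) in polar and 0.81 (SE 0.72) in mural fragments, and neither was called by edgeR. Group means of miR-1981-5p in polar fragments were 1515 ± 348.2 CPM in diapaused (SD, n = 3), 0 in mTORi (n = 3) and 465.4 ± 75.8 in WT (n = 2). In mural fragments they were 1049 ± 496.0 in diapaused (n = 3), 91.5 ± 158.5 in mTORi (n = 3) and 592.4 ± 176.9 in WT (n = 2). High to low, the order was polar diapaused, mural diapaused, mural WT, polar WT, mural mTORi and polar mTORi. Neighbours in that order overlapped, apart from polar WT and mural mTORi.

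Averaged over the parts, miR-1981-5p was the 1 member called between mTORi and WT, lower in mTORi, in a comparison that called 32.4% of names and 16.7% lower. The call was lost without polar mTORi replicate 1 or 3, without mural mTORi replicate 1 or 3 and without either polar WT library, as well as with no filter on low counts, with the replicate number as a block and without both WT replicates 2. Without either mural WT library, and in a fit of only the groups compared, miR-1981-5p failed the filter and has no value. The call rested on 1 count against 12, a ratio of shares of 0.0885 (exact 95% interval 0.00207 to 0.598). The sign held in each fit that gave a value. In mural mTORi replicate 2 its 1 count gave a share of 0.0277%.

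miR-1981-5p varied less within groups than the G-rich names. Its spread within groups, as the SD of log2 CPM, was 0.41 and ranked 83 of 102 names, against 1.33 for miR-5126 (rank 3), 1.11 for miR-2137 (rank 10) and 0.94 for miR-5099 (rank 21). Low counts with a prior count of 2 narrow this spread for miR-1981-5p. Its 3p arm had 3 counts in all, in polar diapaused replicate 3, mural diapaused replicate 2 and polar WT replicate 2, against 111 of the 5p arm. The names most like miR-1981-5p were miR-28a-3p (Pearson 0.83), miR-298-5p (0.78) and miR-466f-3p (0.77), and miR-5099 stood at rank 6 with 0.70.

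No treatment effect was called as different between the parts. The difference between polar and mural fragments of the diapaused effect was largest for miR-5126, at 2.84 (SE 1.40), and that of the mTORi effect was 1.75 (SE 1.29) for miR-5126 and 1.78 (SE 1.30) for miR-2137. Without mural WT replicate 2 these became -1.67 (SE 1.34), -2.91 (SE 1.20) and -1.22 (SE 1.45). Of the 4 members 0 were called by edgeR for either difference (0 at unadjusted p under 0.05, and 0 by DESeq2), and 0% of all names were called (12 of 102 names at unadjusted p under 0.05 for diapaused and 14 for mTORi).

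Other names without an arm suffix give the setting of the 3 such members. Of 323 listed names of this kind, 52 had a count and 4 were tested: miR-5126, miR-2137, miR-5099 and miR-451a. In mural fragments 2 of these 4 were called lower in diapaused than in WT libraries. The 1.96% of all names called lower there were the same 2 names. The median log2 difference of the 4 was -2.09 beside 0.19 over all tested names. The 1 tested name that is no member, miR-451a, was at -1.01 and not called. In polar fragments miR-451a was called lower than in WT both in diapaused (-4.07) and in mTORi libraries (-3.64). Averaged over parts it was called lower in diapaused (-2.54), which made 3 of the 4 lower there. These 3 names are part of the 3.92% of all names called lower in that comparison. miR-451a belongs to the erythroid list, which had 120 counts in polar WT replicate 2 and at most 15 in any other library; the part of that library in these values was not tested. Without the members, names with no arm suffix held 2.96% of polar WT replicate 2 and 0.32% to 1.03% of the other libraries. Of 1066 listed names with a number of 1900 or above, 77 had a count and only the 4 members passed the filter, and without them such names held 0.286% to 0.860% of each library.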

How the data were processed

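The 16 small RNA libraries came from laser-cut fragments of mouse blastocysts. Per the labels' protocols, adapters with unique molecular identifiers were ligated, no size selection was made and 12 to 20 PCR cycles were run. The deposited values are raw counts per mature miRNA name, as whole numbers without normalization, 1 file per library. The submitters' processing notes give the build, GRCm38. Which aligner, counter and miRNA annotation were used, and whether identifiers were collapsed, is not given in the sources used here. How G-rich or repeated sequences were mapped is therefore unknown.

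The counts were fitted with edgeR 4.0.16 under R 4.3.3. filterByExpr (minimum count 10, minimum total 15) kept 102 names with 92.8% to 97.6% of each library's counts, TMM factors scaled them, and a quasi-likelihood model with 1 mean per group was fitted over all 16 libraries (10 residual degrees of freedom, common dispersion 0.1417). There were 14 comparisons, adjusted by Benjamini-Hochberg over the tested names. The SE is the log2 difference divided by the root of the F statistic. Logarithms of CPM used a prior count of 2. The fit was also run on simulated data in which every name had the common dispersion. The dispersions estimated for miR-5126 (0.48) and miR-2137 (0.43) were higher, so that run does not speak to their calls. Replicates of a group were not identical, their chi-square over names being at least 1.995 per degree of freedom in each pair.

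The members and lists were chosen with earlier results of these data known. Named were the 4 members and, for each, the 3 tested names with the highest Pearson correlation of log2 CPM. Alternatives were RLE factors, library size alone, no filter, DESeq2 1.42.0, a fit of only the groups compared, a robust fit, a replicate block, library sizes without the members and each library left out. Polar and mural libraries share replicate numbers. Their deviations from group means correlated at -0.011 for diapaused replicate 2 and at 0.110 to 0.364 for the others. With 2 libraries per WT group, the values of both WT replicates are the same by construction. The numbers were not taken as pairs, though this check cannot exclude that equal numbers share an origin. Sequences came from RefSeq (GRCm38.p6), where 1679 of 1978 names matched, and positions from GENCODE M21. Gene names come from these tables.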

Additional observations from a re-analysis of the deposited data

How the results depend on the processing

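Over 56 log2 differences of the members (4 names in 14 comparisons) and 836 alternative values, no called difference changed sign and 37 values of uncalled ones did; 754 values moved by less than the spread between replicates and 82 by more. Of the 4 members, 0 were called between polar diapaused and WT fragments but 2 with RLE factors, no filter, DESeq2 or a fit of only the groups compared (0 on leaving out a diapaused library). Of all names, 8 were called in the main fit. With RLE factors 13 were called, with no filter 6, with DESeq2 15 and with only the groups compared 12. For the comparisons that follow, the names called in all under each alternative are not set beside the members, so those counts describe the members alone. Between mural diapaused and WT, 2 were called, 0 in a fit of only the groups compared, where neither miR-5126 nor miR-2137 passed the filter, and 0 without both WT replicates 2 (0 to 2 on leaving out 1 library). Averaged over parts the 2 calls became 0 without both WT replicates 2, an alternative chosen after seeing the data (0 to 2 on leaving out 1). For mTORi against WT, DESeq2 called 1 in polar, no filter called 2 in mural fragments and a fit limited to the groups compared 1 in mural fragments (0 to 1 on leaving out a library in each), in place of 0. Averaged over parts the 1 call became 2 with RLE factors or DESeq2, 3 with no filter (miR-5126, miR-2137 and miR-5099, but not miR-1981-5p), and 0 when only the groups compared were fitted, with the replicate block and without both WT replicates 2 (0 to 2 on leaving out 1). Between polar and mural diapaused fragments the 1 call became 3 with no filter, DESeq2 or a fit of only the groups compared, 2 with the replicate block and 0 in every fit without 1 library. In mTORi the 0 became 1 with RLE factors, no filter, DESeq2 or the replicate block (0 to 1 on leaving out 1), in WT it was 0 to 2 on leaving out 1, and on average the 1 became 2 with no filter, with the replicate block and without both WT replicates 2 (0 to 2 on leaving out 1). Between polar diapaused and mTORi the 3 calls became 1 in a fit of only the groups compared (1 to 4 on leaving out 1). In mural fragments the 0 became 1 with RLE factors, library size alone, no filter, DESeq2 and library sizes without the members (0 to 1 on leaving out 1). Where miR-1981-5p, miR-5126 or miR-2137 failed the filter of a fit, it has no value there; the cause of the other moves was not tested. The check made on replicate numbers cannot exclude that they pair the samples. The block moved no other count of members by over 1.5 times. Depth limits miR-1981-5p most, with 0 to 26 counts per library.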
